A study of Mus musculus with 8 samples.

Results

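The Nrf2 oxidative stress response was described in mouse liver through 10 genes: Nfe2l2, which encodes the transcription factor Nrf2, its inhibitor Keap1, and the enzyme genes Nqo1, Gclc, Gclm, Srxn1, Txnrd1, Ugdh, Gsr and Cat. They were taken by symbol from the deposited gene table, which held 19348 genes after reads were summed per gene identifier, and all 10 passed the filter on low counts. The tested animals were 5-week-old Stab1 knock-out mice (5 libraries) and the comparison animals were 5-week-old wild-type mice (3 libraries). The product of Stab1 is stabilin-1, an endocytic receptor found on liver sinusoidal endothelium and on some macrophages. The labels give neither the allele, the strain, the sex nor whether each library is a separate animal, so each p-value refers to spread among libraries that may be partly technical.

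In unstressed cells Keap1 holds Nrf2 in the cytoplasm and, with the ubiquitin ligase scaffold Cul3, directs it to degradation. Electrophiles and oxidants modify cysteines of Keap1, Nrf2 then accumulates, pairs with a small Maf protein and binds antioxidant response elements near its target genes. The targets make glutathione, regenerate thioredoxin and glutathione, reduce quinones and supply the sugar acid used for conjugation, and hepatocytes carry much of this work. Nrf2 is controlled largely at the protein level, which RNA sequencing does not measure.

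The antioxidant response element is shown first because it is the sequence through which Nrf2 acts. Its core was searched as TGACNNNGC and TGAGNNNGC on both strands of the RefSeq promoter windows (GRCm38.p6, 250 bases before to 50 after a gene's start). Both forms can hold the AP-1 site, the first as TGACTCA and the second as its other strand, TGAGTCA. Of the 10 genes, 8 had a window and 5 of these had a match. Counted by window, 5 of the 10 windows of these genes held a match, against 27.8% of all 32851 windows. The windows of Srxn1, Ugdh, Gclm and Nfe2l2 held matches before the start, and the 250 bases before the start are printed 5′ to 3′ along the gene's strand, with the matched bases in capitals.
Srxn1, chr2:152105274-152105523, plus strand: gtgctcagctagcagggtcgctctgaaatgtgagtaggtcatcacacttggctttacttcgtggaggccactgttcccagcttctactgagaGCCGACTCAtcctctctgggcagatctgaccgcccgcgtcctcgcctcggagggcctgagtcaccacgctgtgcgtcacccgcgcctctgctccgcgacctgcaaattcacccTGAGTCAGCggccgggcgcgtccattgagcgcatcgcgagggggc
Ugdh, chr5:65435843-65436092, minus strand: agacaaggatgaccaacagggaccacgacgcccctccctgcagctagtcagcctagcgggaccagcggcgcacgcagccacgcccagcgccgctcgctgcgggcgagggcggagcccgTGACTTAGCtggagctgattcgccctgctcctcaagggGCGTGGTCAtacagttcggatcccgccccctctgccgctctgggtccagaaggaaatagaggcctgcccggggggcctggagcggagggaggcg
Gclm, chr3:122245307-122245556, plus strand: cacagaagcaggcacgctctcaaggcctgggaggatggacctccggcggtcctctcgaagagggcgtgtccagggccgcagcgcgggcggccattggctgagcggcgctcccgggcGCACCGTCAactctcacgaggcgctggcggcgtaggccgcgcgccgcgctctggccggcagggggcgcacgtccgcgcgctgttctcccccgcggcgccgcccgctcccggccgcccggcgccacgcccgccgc
Nfe2l2, chr2:75704664-75704913, minus strand: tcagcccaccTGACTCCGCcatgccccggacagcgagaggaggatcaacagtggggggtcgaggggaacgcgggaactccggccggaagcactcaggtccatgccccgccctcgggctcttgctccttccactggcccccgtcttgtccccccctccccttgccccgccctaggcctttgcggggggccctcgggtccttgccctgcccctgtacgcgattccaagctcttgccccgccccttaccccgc
The Srxn1 matches began 158 and 45 bases before the start, and the one at 45 bases, TGAGTCAGC, contains the AP-1 letters. A further Srxn1 match lay 28 bases after the start. The Ugdh matches began 132 and 94 bases before the start, the Gclm match 134 and the Nfe2l2 match 240. Txnrd1 had 3 windows in the table, 1 of them with the match GCTTTGTCA (opposite strand), 92 bases before that start. The windows of Keap1, Nqo1 and Cat did not hold these letters, and bases outside the windows were not searched. A match is a description of the letters, not a measured binding site.

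Library depth was 4.85 M (mega) uniquely mapped reads in knockout library 1, 8.94 to 10.5 M in the other knockout libraries and 10.1 to 10.8 M in the wild-type libraries. Stab1 had 5 to 16 reads in each knockout library, against 474 to 594 per wild-type library. Knockout library 1 stood apart: it held 3 reads of the female-specific transcript Xist, where each of the others had 4445 to 8222. It also had 320 reads of Ddx3y, a gene on the Y chromosome, where the others had 0 to 4. Its reads are therefore those of a male animal among female ones. All 10 hepatocyte markers were read in every library, and their summed level was 107338 to 174213 CPM (reads scaled to library size) over the knockouts, against 186072 to 191620 CPM over the wild types. The 10 sinusoidal endothelial markers summed to 266 to 342 CPM over the knockouts, against 350.4 to 449.9 CPM over the wild types. The 12 erythroid markers summed to 107 to 256 CPM over the knockouts, against 99.98 to 112 CPM over the wild types. No marker of these 3 lists was at 0 in all libraries. Of the erythroid markers 10 of 12 were tested, and no tested marker of the 3 lists was called by edgeR. The fit put knockouts above wild types for 4 of 10 hepatocyte, 0 of 10 sinusoidal endothelial and 10 of 10 tested erythroid markers. Of all tested genes it did so for 6056 of 12338. The evenness of read coverage, measured as the median covered percent of genes of 1 to 3 kb with 30 to 60 reads per kb, was 75.4% to 78.2% over the knockouts, against 77.1% to 79.0% over the wild types. The part of these differences in the results that follow was not tested, apart from fits without knockout library 1 and with coverage evenness as a covariate. In liver tissue as a whole, fewer cells of a type and less RNA per cell cannot be told apart.

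For none of the 10 genes did the difference between knockout and wild-type liver pass the edgeR quasi-likelihood test. An adjusted p below 0.05 was reached by 0 of 10, where 28 of 12338 tested genes (0.227%) were called in either direction. An unadjusted p below 0.05 was reached by 1 of 10, Gclc, where 13.6% of tested genes reached it. The DESeq2 Wald test also called 0 of 10, where it called 0.884% of the genes to which it gave an adjusted p. Of the 10 fitted log2 fold changes, 8 were negative, with a median of -0.15, while the median over all tested genes was -0.01 and 6282 of 12338 were negative. The 95% interval of each of the 10 genes, not corrected for the number of genes, lay inside a 2-fold change in either direction. The knockout and wild-type ranges overlapped for all 10 genes. Over all tested genes, 3.61% had every knockout library below every wild-type library and 3.04% had every one above.

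**Figure D1:**
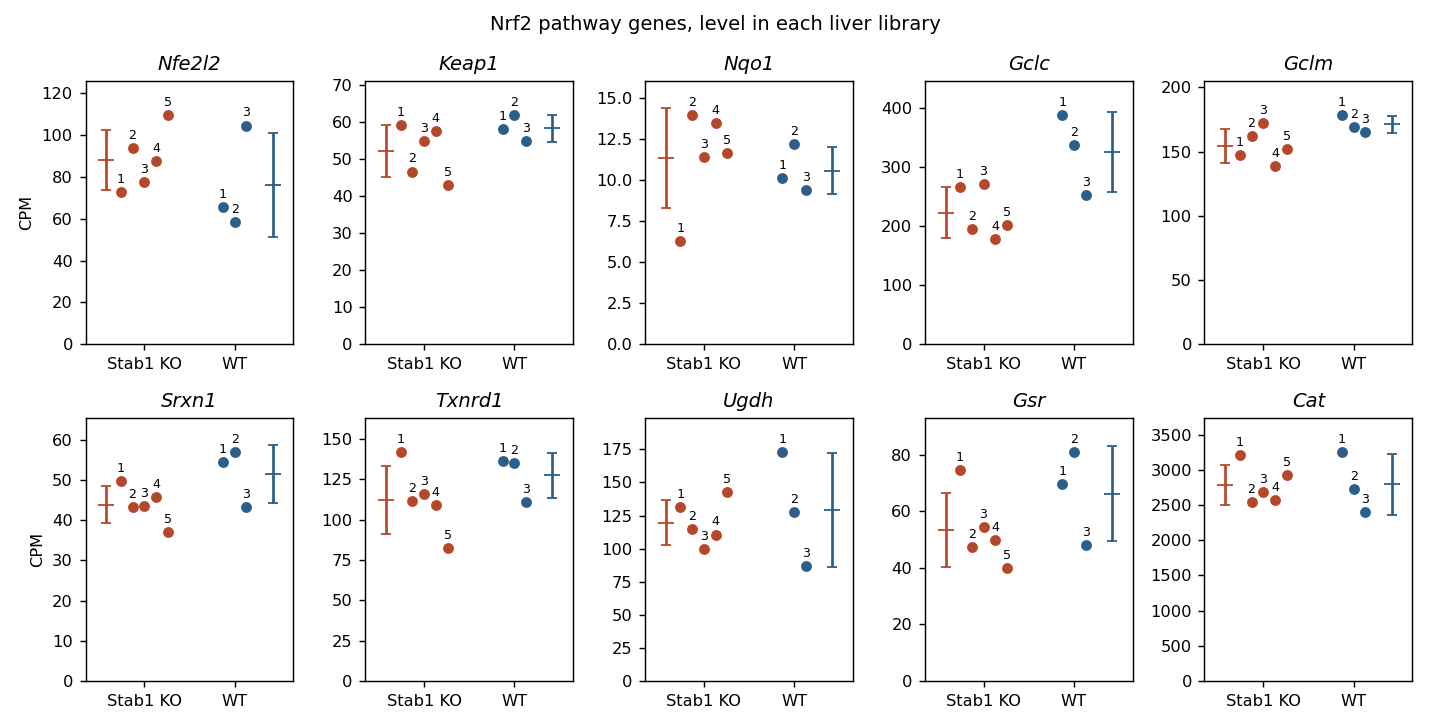
Level of each of the 10 genes in CPM (linear axis from 0) in the 5 knockout libraries (red, left) and the 3 wild-type libraries (blue, right), with library numbers beside the points and bars for mean ± SD. The groups overlap in every panel, and wild-type library 3 lies at 252 CPM for Gclc, within the knockout range.

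Nfe2l2, the gene of the transcription factor, had 73.0, 93.7, 77.8, 87.5 and 109.5 CPM in knockout libraries 1 to 5, against 65.7, 58.5 and 104.7 CPM in wild-type libraries 1 to 3. All 5 knockout libraries lay above wild-type libraries 1 and 2, but only knockout library 5 exceeded wild-type library 3. The means were 88.3 ± 14.4 CPM over the knockouts, against 76.3 ± 24.8 CPM over the wild types (SD, n = 5 and 3), with a log2 fold change of 0.21 (95% interval -0.26 to 0.68, edgeR adjusted p = 0.645). Left-out libraries moved it from 0.04 without wild-type library 2 to 0.51 without wild-type library 3 (edgeR adjusted p = 0.965 and 0.171). Without wild-type library 3 edgeR called 0 of the 10 genes, where it called 0.745% of all tested.

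Keap1, whose product binds Nrf2 and marks it for degradation, had 59.1, 46.6, 54.8, 57.5 and 42.8 CPM in knockout libraries 1 to 5, against 58.2, 61.7 and 54.7 CPM in the wild-type libraries. Knockout libraries 2 and 5, which were the highest of their group for Nfe2l2, were the lowest for Keap1. Keap1 had a log2 fold change of -0.16 (95% interval -0.48 to 0.16, edgeR adjusted p = 0.606). Within each library the log2 ratio of Nfe2l2 to Keap1 reads per kb was 1.16, 1.86, 1.36, 1.46 and 2.20 in knockout libraries 1 to 5, against 1.03, 0.78 and 1.79 in wild-type libraries 1 to 3. Its mean was 1.61 ± 0.42 in knockout and 1.20 ± 0.53 in wild-type liver, a difference of 0.41, and an exact two-sided permutation test over 56 divisions of the libraries gave p = 0.268. The adjusted p over the 2 ratios tested was also 0.268 by the exact permutation test. The difference ran from 0.20 to 0.70 with a library left out, and it turned to -0.14 with coverage evenness as a covariate.

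Gclc, the catalytic subunit of glutamate-cysteine ligase and the rate-limiting step of glutathione synthesis, had the smallest p of the 10 genes. It had 267, 194, 270.4, 178 and 201 CPM in knockout libraries 1 to 5, against 387, 336 and 252 CPM in wild-type libraries 1 to 3. Every knockout library lay below wild-type libraries 1 and 2, and knockout libraries 1 and 3 lay above wild-type library 3. The means were 222 ± 43.1 CPM over the knockouts, against 325 ± 68.4 CPM over the wild types (SD, n = 5 and 3). The log2 fold change was -0.55 (SE 0.20, 95% interval -0.99 to -0.11), with an unadjusted p of 0.0200 and an adjusted p of 0.333 by edgeR. Without knockout library 1 the edgeR log2 fold change was -0.63 (adjusted p = 0.0988, where 0.928% of tested genes were called). The DESeq2 Wald test on the same 7 libraries gave -0.62 with an adjusted p of 0.0370. Gclc was then the 1 gene of the 10 that it called, where it called 8.61% of the genes to which it gave an adjusted p. Over all the edgeR and DESeq2 alternatives the adjusted p of Gclc ran from 0.0370 to 0.970.

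Gclm, the modifier subunit that lowers the substrate need of the same ligase, varied least of the 10. It had 147, 162, 172, 139 and 152 CPM in knockout libraries 1 to 5, against 178, 169.6 and 166 CPM in the wild-type libraries. Knockout library 3 was the only one of its group inside the wild-type range. The coefficient of variation of Gclm was 8.45% among knockout and 3.77% among wild-type libraries, while that of Gclc was 19.4% and 21.0%. The log2 fold change of Gclm was -0.15 (95% interval -0.43 to 0.14, edgeR adjusted p = 0.597).

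The balance of the ligase subunits was measured inside each library, where library scaling cancels. The log2 ratio of Gclc to Gclm reads per kb was 0.12, -0.47, -0.08, -0.37 and -0.33 in knockout libraries 1 to 5, against 0.39, 0.26 and -0.13 in wild-type libraries 1 to 3. Its means were -0.22 ± 0.24 in knockout and 0.17 ± 0.27 in wild-type liver, a difference of -0.40. The exact two-sided permutation test gave p = 0.0714, or 0.143 adjusted over the 2 ratios, where the smallest possible p is 0.0179. It was -0.55 without wild-type library 3 (exact permutation p = 0.0476, the smallest that 21 divisions allow, and 0.0952 adjusted over the 2 ratios) and -0.29 without wild-type library 1 (exact permutation p = 0.238). With coverage evenness as a covariate it was -0.06.

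**Figure D2:**
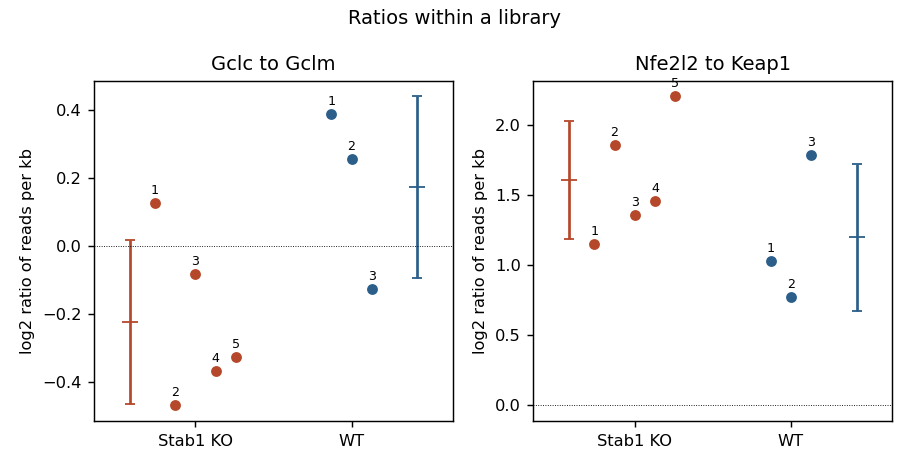
Log2 ratio of reads per kb within each library, for Gclc to Gclm (left panel) and Nfe2l2 to Keap1 (right panel), in knockout (red) and wild-type (blue) libraries, with mean ± SD. In both panels wild-type library 3, at -0.13 and 1.79, lies inside the knockout range, and wild-type libraries 1 and 2 lie outside it.

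Gsr, glutathione reductase, returns oxidised glutathione to its reduced form. It had 74.7, 47.5, 54.4, 49.9 and 39.9 CPM in knockout libraries 1 to 5, against 69.8, 81.0 and 48.2 CPM in the wild-type libraries. Knockout library 1 lay between wild-type libraries 1 and 2, and the other knockout libraries lay near wild-type library 3. For Gsr the log2 fold change was -0.32 (95% interval -0.81 to 0.17, edgeR adjusted p = 0.502), and it was -0.47 without knockout library 1 (edgeR adjusted p = 0.152).

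Srxn1 encodes sulfiredoxin, which repairs over-oxidised peroxiredoxins. It had 49.7, 43.4, 43.6, 45.7 and 36.9 CPM in knockout libraries 1 to 5, against 54.4, 56.9 and 43.4 CPM in wild-type libraries 1 to 3. As for Gclc, every knockout library lay below wild-type libraries 1 and 2. Srxn1 had a log2 fold change of -0.24 (95% interval -0.55 to 0.08, edgeR adjusted p = 0.457). Srxn1 held the most element matches in its window of the 8 genes searched.

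Txnrd1 encodes the cytosolic thioredoxin reductase, a selenoprotein. It had 142, 111, 116, 109 and 82.2 CPM in knockout libraries 1 to 5, against 136, 135.0 and 111 CPM in the wild-type libraries. The highest and the lowest library were both knockouts, and the log2 fold change was -0.19 (95% interval -0.58 to 0.21, edgeR adjusted p = 0.626).

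Nqo1, the quinone reductase often used as a readout of Nrf2 activity, was the lowest of the 10 per length. It had 6.26, 13.9, 11.4, 13.4 and 11.7 CPM in knockout libraries 1 to 5, against 10.1, 12.2 and 9.42 CPM in the wild-type libraries. These rest on 32 to 132 reads per library, and the lowest value was that of knockout library 1. The log2 fold change was 0.12 (95% interval -0.41 to 0.64, edgeR adjusted p = 0.826), and without knockout library 1 it was 0.25 (edgeR adjusted p = 0.363).

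Ugdh oxidises UDP-glucose to UDP-glucuronic acid, the donor for glucuronidation. It had 131, 114, 99.4, 111 and 143 CPM in knockout libraries 1 to 5, against 173, 127 and 86.7 CPM in the wild-type libraries. The wild-type libraries spanned the whole knockout range and more. For Ugdh the log2 fold change was -0.11 (95% interval -0.59 to 0.37, edgeR adjusted p = 0.822), and its sign turned to 0.16 without wild-type library 1.

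Cat encodes catalase, the peroxisomal enzyme that breaks down hydrogen peroxide. It had 3208, 2539, 2689, 2573 and 2927 CPM in knockout libraries 1 to 5, against 3253, 2732 and 2399.9 CPM in the wild-type libraries. The means were 2787 ± 280.2 CPM over the knockouts, against 2795 ± 430.3 CPM over the wild types (SD, n = 5 and 3). Knockout over wild type was 0.997-fold, with a 95% interval of 0.786 to 1.26 (edgeR adjusted p = 0.993).

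**Figure D3:**
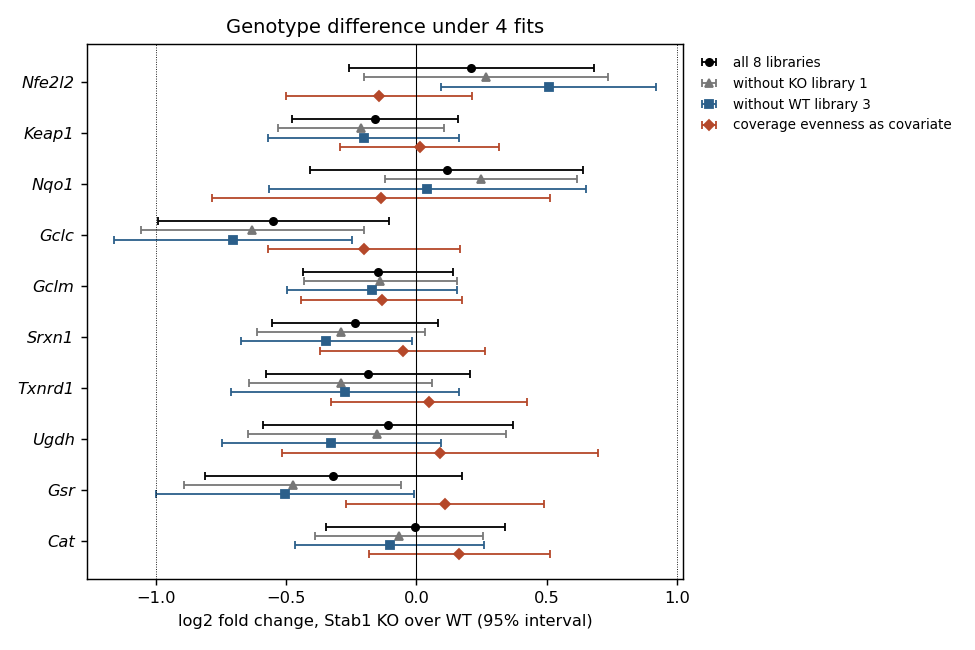
Log2 fold change of knockout over wild type with its 95% interval for each gene, in the edgeR fit with all 8 libraries, without knockout library 1, without wild-type library 3 and with coverage evenness as a covariate. Dotted lines mark a 2-fold change. With all libraries the Gclc interval, -0.99 to -0.11, lies below 0, and with the covariate its estimate is -0.20.

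Wild-type library 3 lay inside the knockout range for 8 of the 10 genes, against 69.1% of all tested genes, and wild-type libraries 1 and 2 for 4 and 5 of the 10, against 56.03% and 57.9%. Wild-type library 3 also had the lowest coverage evenness of its group, 77.1%, against 78.8% and 79.0% in wild-type libraries 1 and 2. Its periportal markers summed to 6472 CPM, against 10428 and 8181 CPM in wild-type libraries 1 and 2. Its pericentral markers summed to 11587 CPM, against 7430 and 8364 CPM in the same libraries. The part of these traits in the position of wild-type library 3 was not tested. Coverage evenness as a covariate in the edgeR fit was an alternative chosen after seeing the data. With it the log2 fold change was -0.20 for Gclc, -0.13 for Gclm and -0.05 for Srxn1. The signs of 7 of the 10 genes turned, to -0.14 for Nfe2l2, 0.01 for Keap1, -0.14 for Nqo1, 0.05 for Txnrd1, 0.09 for Ugdh, 0.11 for Gsr and 0.17 for Cat. The share of signs that turned over all tested genes was not counted. In that fit 0 of the 10 were called, and the edgeR adjusted p of Gclc was 0.956. Coverage evenness ran lower over the knockouts than over the wild types, with overlap. A difference of genotype and one of coverage therefore cannot be fully told apart in this fit, here or for the lists below.

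Per length, the order of the 10 genes was the same at its ends in every library. Levels here are the deposited RPKM (mapped reads scaled to gene length and library size). Cat averaged 1094 ± 140 RPKM over the 8 libraries (SD), 14.1 times the next gene. Gclm (77.5 ± 6.41 RPKM) and Gclc (75.9 ± 21.5 RPKM) followed, and Gclm was above Gclc in 5 of 8 libraries, so their order did not hold beyond the spread. Ugdh averaged 50.03 ± 10.96 RPKM and exceeded Nfe2l2 in 7 of 8 libraries. Nfe2l2 (33.8 ± 6.81 RPKM) and Txnrd1 (32.49 ± 5.998 RPKM) changed places, with Nfe2l2 higher in 4 of 8. Gsr, Srxn1, Keap1 and Nqo1 averaged 21.7 ± 5.97, 16.5 ± 2.54, 12.2 ± 1.68 and 7.087 ± 1.496 RPKM, and each of the first 3 was above the next in 8 of 8 libraries.

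**Figure D4:**
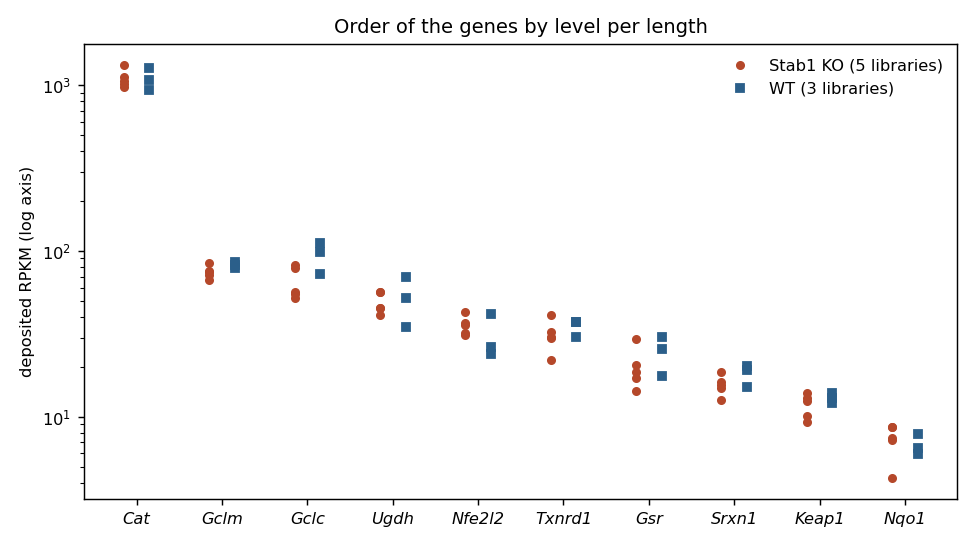
Deposited RPKM (log axis) of each gene in the knockout (red circles) and wild-type (blue squares) libraries, ordered by the mean over all 8. Catalase stands 14.1 times above the next gene. Below it the ranges of neighbours overlap down to Keap1, with the closest means for Gclm and Gclc, and for Nfe2l2 and Txnrd1. The ranges of Keap1 and Nqo1 do not overlap.

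Among tested genes with a name, those whose profile over the 8 libraries was nearest to that of Gclc were Agtpbp1, Pm20d1 and Acat2. Their root mean square differences in centred log2 CPM were 0.0851, 0.0882 and 0.0907, against a median of 0.452 over all other tested genes. These genes were picked for the smallest differences, so their place below that median was set by the choice. Among the other 9 genes of the set the nearest to Gclc was Gsr (0.234) and the farthest Nfe2l2 (0.626).

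The other genes of the pathway were described by lists, and the edgeR test called 0 genes in each of the 6 lists. Of all 12338 tested genes, 6056 had a positive and 6282 a negative log2 fold change. An unadjusted edgeR p below 0.05 was reached by 13.6% of them. In 3.61% of all tested genes every knockout library lay below every wild-type library, and in 3.04% above. These values are the background for the counts in each list and for the genes said below not to overlap. Overlap is given below only for some of the named genes. Of 11 partners and regulators of Nrf2, 7 had a negative log2 fold change (median -0.01), and 1 had an unadjusted p below 0.05. That was Mafg, a small Maf partner of Nrf2, at 23.7 ± 4.70 CPM over the knockouts, against 32.0 ± 0.518 CPM over the wild types (edgeR log2 fold change -0.43, adjusted p = 0.341). Every knockout library of Mafg, at 18.4 to 27.8 CPM, lay below every wild-type library, at 31.4 to 32.5 CPM. Gsk3b, a kinase that promotes Nrf2 degradation, had a log2 fold change of -0.35 (edgeR adjusted p = 0.452), and Cul3 had 0.14 (edgeR adjusted p = 0.626). With coverage evenness as a covariate these 3 stood at -0.26, 0.02 and 0.03.

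Of 27 other Nrf2 targets 25 were tested, 16 of them with a positive log2 fold change (median 0.11), and 3 had an unadjusted p below 0.05. Slc7a11, the cystine carrier, and Gpx2, a glutathione peroxidase, had too few reads to test. Abcc2, which exports glutathione conjugates into bile, had 238, 124, 220.3, 130.4 and 227 CPM in knockout libraries 1 to 5, against 381, 335 and 237 CPM in the wild-type libraries. At -0.76 (SE 0.26), its log2 fold change was the lowest of this list, with an edgeR adjusted p of 0.332. Ephx1, microsomal epoxide hydrolase, averaged 195 ± 46.2 CPM over the knockouts, against 263 ± 12.5 CPM over the wild types (edgeR log2 fold change -0.43, adjusted p = 0.365). Slc48a1, a haem transporter, averaged 49.2 ± 3.46 CPM over the knockouts, against 40.5 ± 2.47 CPM over the wild types (edgeR log2 fold change 0.28, adjusted p = 0.356), with no overlap of the groups. With the coverage covariate Abcc2 stood at -0.32, Ephx1 at -0.15 and Slc48a1 at 0.23.

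Of 18 glutathione cycle genes 17 were tested, 11 with a positive log2 fold change (median 0.07, and -0.08 with the coverage covariate) and 5 with an unadjusted p below 0.05. Glrx, glutaredoxin, had 37.2, 123.7, 99.0, 93.8 and 78.7 CPM in knockout libraries 1 to 5, against 43.8, 42.4 and 51.5 CPM in the wild-type libraries. Knockout library 1 lay below every wild-type library and the other 4 above all of them. The log2 fold change of Glrx was 0.92 (edgeR adjusted p = 0.332) with all libraries and 1.10 without knockout library 1, where it rose with an edgeR adjusted p of 0.0243 (0.928% of all tested genes were called in that fit). With the coverage covariate it was 0.40 (edgeR adjusted p = 0.950). Mgst1, a microsomal glutathione transferase, averaged 4545 ± 1233 CPM over the knockouts, against 2563 ± 751 CPM over the wild types (edgeR log2 fold change 0.83, adjusted p = 0.327). Chac2, which degrades glutathione, averaged 49.2 ± 22.9 CPM over the knockouts, against 25.1 ± 6.35 CPM over the wild types (edgeR log2 fold change 0.97, adjusted p = 0.336). With that covariate Mgst1 stood at 0.35 and Chac2 at 0.06.

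Of 17 tested genes that remove peroxide or superoxide, 14 had a positive log2 fold change (median 0.25) and 1 had an unadjusted p below 0.05. Prdx5, a peroxiredoxin, averaged 228 ± 40.4 CPM over the knockouts, against 154 ± 30.4 CPM over the wild types (edgeR log2 fold change 0.57, adjusted p = 0.332). Sod3, the extracellular superoxide dismutase, had a log2 fold change of -0.32 (edgeR adjusted p = 0.374) with every knockout library below every wild-type library. Selenop, the plasma selenoprotein made by hepatocytes, had 0.63 (edgeR adjusted p = 0.375). With coverage evenness as a covariate the median of this list was -0.02, with 11 of 17 negative, and Prdx5, Sod3 and Selenop stood at 0.20, -0.11 and -0.03.

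Around Ugdh, 9 of 13 tested genes of the glucuronic acid route had a positive log2 fold change (median 0.26), and 1 had an unadjusted p below 0.05. The glucuronosyltransferase gene Ugt2b35 averaged 252 ± 60.9 CPM over the knockouts, against 179 ± 23.2 CPM over the wild types (edgeR log2 fold change 0.50, adjusted p = 0.356). Rgn and Ugt2b36 had 0.53 and 0.68 (edgeR adjusted p = 0.391 and 0.394). The Ugt2b genes are near-identical copies in part, so their counts are uncertain. With the coverage covariate the median of the list was -0.04, and Ugt2b35, Rgn and Ugt2b36 stood at 0.12, -0.04 and -0.18.

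Around Cat, 17 of 18 peroxisome genes were tested, 9 with a positive log2 fold change (median 0.01, and -0.17 with the coverage covariate) and 2 with an unadjusted p below 0.05. The remaining gene, Dao, had no read. Scp2, a peroxisomal thiolase and sterol carrier, averaged 3820.1 ± 795 CPM over the knockouts, against 2669 ± 210.0 CPM over the wild types (edgeR log2 fold change 0.52, adjusted p = 0.333), with no overlap. Abcd3, a peroxisomal membrane transporter, averaged 523 ± 40.7 CPM over the knockouts, against 693 ± 122 CPM over the wild types (edgeR log2 fold change -0.41, adjusted p = 0.336), also with no overlap. Agxt had 0.38 (edgeR adjusted p = 0.371). With the coverage covariate Scp2 stood at 0.56, Abcd3 at -0.46 and Agxt at 0.19.

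**Figure D5:**
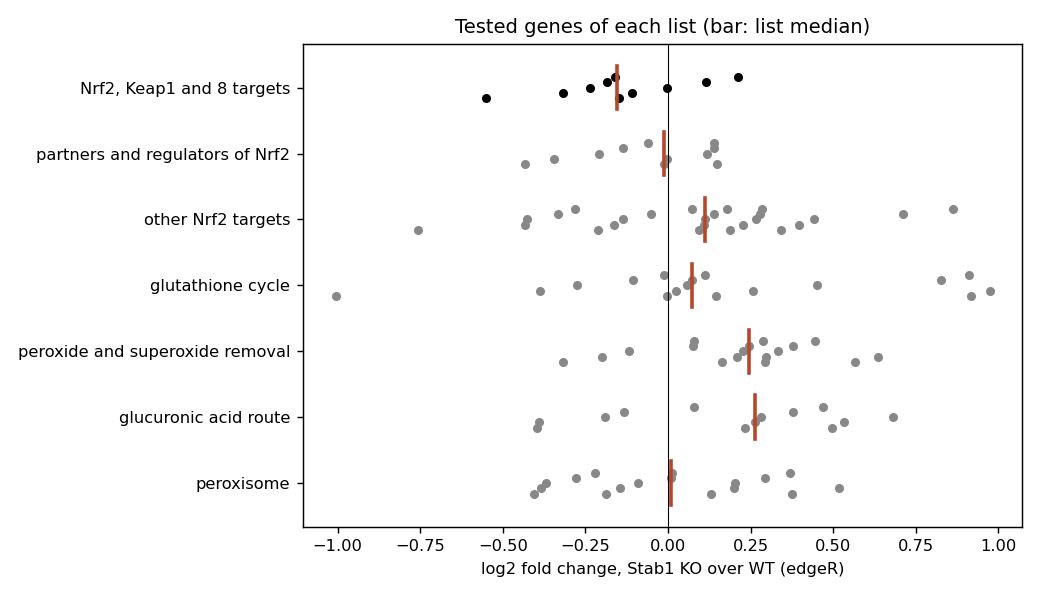
Log2 fold change of knockout over wild type (edgeR, all 8 libraries) of each tested gene in the 10-gene set (black) and the 6 other lists (grey), with the list median as a red bar. Medians run from -0.15 in the 10-gene set to 0.26 in the glucuronic acid route.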

How the data were processed

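Messenger RNA was sequenced from liver of 5 Stab1 knockout and 3 wild-type libraries, grouped and numbered by their titles. Per the file headers, the deposited table gives per library a count per gene of reads mapped uniquely, the percent of the gene covered by reads, and RPKM made by the authors, which equalled the value recomputed from reads, length and library total. Which aligner, counter, build, annotation and strand setting were used is not given in the sources used here. A dash was read as 0, and 229 rows of 113 identifiers were summed.

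Counts were fitted in R 4.3.3 with edgeR 4.0.16: filterByExpr, TMM scaling, the quasi-likelihood F test without covariates, and Benjamini-Hochberg adjustment over 12338 genes, called below 0.05. A standard error is the log2 fold change over the square root of F. DESeq2 1.42.0, scaling, filter, replicate block, coverage evenness and left-out libraries were alternatives. Ratios used reads per kb plus 0.5. Plots came from matplotlib 3.10.9 (Python 3.11.15).

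Depth was 4.85 to 10.8 M reads, where 3 reads are 0.278 to 0.619 CPM. The fit was tested on data simulated for 5 knockout and 3 wild-type libraries. It called 40 of 100 genes changed 2-fold, 94 of 100 changed 4-fold and 6 of 12004 unchanged genes. The changed genes were drawn at random from all tested genes, with the depths and spread of the fit. Neither sex nor coverage evenness differed among the simulated libraries, so these rates need not hold for the real libraries or the 10 genes. The genes and lists were chosen with earlier results of these data known. Named by rule were Stab1, the 10 genes, each list's called genes or else its 3 smallest p, and the 3 genes nearest to Gclc in profile; Slc7a11, Gpx2 and Dao were named outside it, as the untested genes of their lists, with their values seen. Beside the markers in the results, summed levels were, over knockout (KO) and wild-type (WT) libraries: 10 pericentral KO 6437 to 10741 and WT 7430 to 11587 CPM, 10 periportal KO 6224 to 7279.9 and WT 6472 to 10428 CPM, 10 Kupffer KO 592 to 852 and WT 499 to 671 CPM, 10 stellate KO 304 to 449 and WT 437 to 503 CPM, 7 cholangiocyte KO 76.1 to 143 and WT 75.0 to 87.1 CPM. The 7 neutrophil markers had KO 9.36 to 16.7 and WT 4.61 to 10.7 CPM, the 7 lymphocyte markers KO 4.35 to 9.85 and WT 6.27 to 10.4 CPM, and the 7 adipose and mesothelial markers KO 11.9 to 33.3 and WT 11.9 to 15.9 CPM, with Plin1 at 0 in all libraries. edgeR tested 6 of 7 cholangiocyte, 4 of 7 neutrophil, 4 of 7 lymphocyte and 3 of 7 adipose and mesothelial markers. All markers of the other lists here were tested. None was called by edgeR, and the part of these markers in the results was not tested.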

Additional observations from a re-analysis of the deposited data

Results flagged for a closer look

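Of 30 knockout groups examined (28 genes and 2 ratios), 2 had a library far from the others, where chance gives about 1 in 20. Gsk3b had 37.9 CPM in knockout library 1, against 22.2 to 26.8 CPM in the other 4 knockout libraries. Agxt, alanine-glyoxylate aminotransferase, had 291 CPM in knockout library 1, against 436 to 454 CPM in the other 4. Both were in the library with male reads and the lowest depth, and the part of either was not tested.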

How the results depend on the processing

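The count of called genes was 28 with all libraries and edgeR, and 13 to 114 with a library left out (114 without knockout library 1, 93 without wild-type library 3, 15 when wild-type library 1 was out, 13 when it was wild-type library 2). It was 130 with DESeq2, 1057 with DESeq2 without knockout library 1, and 18 with the coverage covariate. The replicate block gave 8 calls over the 6 libraries numbered 1 to 3, and the same libraries without it gave 15. The block called 0 of the 10 genes. Same-numbered libraries correlated at 0.12, -0.15 and -0.15 in their deviations from group means. None of the 6 libraries correlated best with the one of its own number, so the numbers were not taken as pairs. Calls among the 10 genes were 0 in every alternative except DESeq2 without knockout library 1, which gave 1 (Gclc). The difference in the log2 ratio of Gclc to Gclm ran from -0.55 to -0.29 with a library left out, and was -0.0633 with the coverage covariate and -0.31 with the block. Adjusted over the 2 ratios, it passed the threshold in none of the permutation tests with a library left out. That of Nfe2l2 to Keap1 ran from 0.20 to 0.70, and with the coverage covariate it was -0.14. Signs turned in 15 of 150 refits of the 10 genes: 7 with the coverage covariate (Nfe2l2 -0.143, Keap1 0.0124, Nqo1 -0.136, Txnrd1 0.0476, Ugdh 0.0918, Gsr 0.11 and Cat 0.17), Nqo1 with the replicate block (-0.0419), Ugdh without wild-type library 1 (left-out range -0.33 to 0.16), and Cat, whose estimate is near 0, at 0.03, 0.01, 0.02 and 0.12 without knockout libraries 2, 3, 4 and wild-type library 1 (left-out range -0.10 to 0.12), at 0.0139 with the block and at 0.00992 without it. The coverage covariate also turned Gsk3b (0.0233), Selenop (-0.0318), Rgn (-0.0414) and Ugt2b36 (-0.18). The cause was not tested. DESeq2 without knockout library 1 called 8.61% of the genes to which it gave an adjusted p. Out of all fitted genes of each list, with or without an adjusted p, it called 4 of 27 other Nrf2 targets, 5 of 18 glutathione cycle, 2 of 17 peroxide and superoxide, 4 of 13 glucuronic acid, 1 of 17 peroxisome and 0 of 11 regulator genes. Of the genes named for their lists' smallest p, 10 were among them. Lists and genes were otherwise on the same side of the threshold under library scaling (RLE) and with no filter. Depth limits Nqo1 most among the 10, with 32 reads in knockout library 1.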
